A study of Mus musculus with 2 samples.

Results

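The insulin-like growth factor (IGF) genes described here are the ligands Igf1 and Igf2, the receptor Igf1r, and the binding proteins Igfbp2, Igfbp3, Igfbp4, Igfbp5, Igfbp6, and Igfbp7, which are 9 of the 32288 features in the deposited gene list. They were chosen by symbol and not by their values, though earlier results of these data were known. Periosteal cells from the long bones (femurs and tibias) of WT C57BL6 mice, 4 weeks old, had been sorted as CD45-CD31-Ter119- cells, and 2 untreated 10x scRNA-Seq libraries of this one condition, labelled replicates 1 and 2, were analysed. How many mice went into either library is not given in the sources used here, so the p-values measure only the spread between these libraries, which may be technical. Cells with at least 500 genes, at least 500 unique molecular identifiers (UMIs, 1 for each captured transcript), and at most 10% mitochondrial counts were kept, which left 6276 of 9932 barcodes in library 1 and 2893 of 3659 in library 2, with medians of 8164 and 6279 UMIs per cell. The question was which stromal cell type makes each IGF gene.

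IGF1 and IGF2 are secreted growth factors that act through the receptor tyrosine kinase IGF1R, and the insulin receptor substrates carry the signal to PI3K and AKT. Most secreted IGF is held by IGF-binding proteins, which prolong its life, keep it from the receptor, or tether it in the matrix until proteases release it. Bone matrix stores IGFs, and IGF signaling in osteoblasts and growth plate chondrocytes is needed for normal bone growth.

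Cell classes were rebuilt from the counts by clustering, with the IGF genes and 30 other IGF pathway genes left out of the variable genes, and were named from marker lists with "-like" added. The sort was meant to remove blood cells, but 445 cells of library 1 (7.09%) and 1124 of library 2 (38.9%) were stromal. The stromal classes held, in libraries 1 and 2, 20 and 290 P-SSC-like cells (P-SSC, periosteal skeletal stem cell), 83 and 37 Lepr+ stromal-like cells, 16 and 115 tenocyte-like cells, 92 and 167 osteoblast-like cells, 27 and 121 chondrocyte-like cells, 17 and 50 hypertrophic chondrocyte-like cells, and 71 and 63 skeletal muscle-like cells. Smooth muscle-like cells (4 and 20) were too few in library 1 to enter the test. Clusters led by Msmp, Cytl1, and Prg4 (0 and 74 cells) and by Col10a1 (68 and 74 cells) were left without a name. So was a low-depth cluster led by Gm26917 (38 and 85 cells). A cluster with both P-SSC-like and B cell-like markers (9 and 28 cells) was set apart as mixed and not tested. The hypertrophic chondrocyte-like cells had Col10a1 at 27845 and 19424 UMIs per 1000000 UMIs of the class (CPM), but their first 2 leading genes were Tcim and Ddit4l, which are not among the markers of that list. Col10a1 was higher in the unnamed Col10a1-led cluster, at 81579 and 45034 CPM. EGFP, a reporter that the WT label does not explain, was also among the leading genes of this cluster, and its source was not tested. Of the 32288 features, 32285 had Ensembl identifiers. The results for hypertrophic chondrocyte-like cells do not cover the Col10a1-led cluster. P-SSC-like cells were named from Pdgfra, Ly6a, Cd34, Clec3b, Pi16, Dpp4, Mfap5, Cd248, Gas1, Sema3c, Pdpn, and Thy1. The paper that reported the data described mouse P-SSCs by Prx1, LRP1, and CD13, which were not in this list. To isolate them, the paper combined LRP1 and CD13 with PDGFRA, whose gene is in this list. The paper also called a Lepr+ cluster P-SSCs. Whether the P-SSC-like cells are stem cells was not tested. B cell-like cells, 2675 and 1337 in the 2 libraries, should lack most of these genes and gave the background from free RNA.

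The libraries stood apart within several classes. In Lepr+ stromal-like cells, the 9 markers of the list summed to 24439 CPM in library 1 and 4094 CPM in library 2, with Adipoq at 2517 and 326 CPM and Lepr at 678 and 316 CPM. In the same class, the 4 osteoclast-like markers, which include Mmp9, summed to 1414 and 7926 CPM, and the 9 erythroid-like markers to 17159 and 389 CPM. The 9 osteoblast-like markers summed to 1572 and 4357 CPM in these cells, with Bglap at 37.9 and 1266 CPM, Postn at 87.3 and 1217 CPM, Alpl at 482 and 1299.9 CPM, and Tnn at 0 and 312 CPM. In tenocyte-like cells, the 8 markers summed to 2611 CPM in library 1 and 14701 CPM in library 2, Tnmd was at 429 and 2966 CPM, and the 8 skeletal muscle-like markers summed to 2759 and 91.4 CPM. In P-SSC-like cells, the 12 class markers summed to 11905 and 12008 CPM, but the 10 neutrophil-like markers summed to 17919 and 34.4 CPM, with S100a8 at 6649.5 and 12.8 CPM. In osteoblast-like cells, the neutrophil-like markers summed to 3635 and 42.7 CPM and the erythroid-like markers to 3357 and 222 CPM, with Dmp1 at 482 and 91.4 CPM. In the other tested classes the neutrophil-like sum was 443 to 632 CPM in library 1 and 36.0 to 82.8 CPM in library 2. The part of these markers in the IGF values was not tested. Each result on the Lepr+ stromal-like and tenocyte-like cells is therefore to be read with the value of each library, and the counts of calls without each class are given below.

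UMIs were summed per library and class (n = 2 sums per class, 7 classes, 14 sums) and compared in a single edgeR model. Of 10536 genes tested, 56.8% differed among the classes, and 8 of the 9 IGF genes passed the filter on low counts, all 8 of which differed. Igfbp2 did not pass. The adjusted p was 0.0302 for Igf1r and between 4.03e-06 and 0.000997 for the other 7 genes. With the skeletal muscle-like cells left out of the model, 7 of the 8 differed, where 4114 of 10682 genes did.

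**Figure D1:**
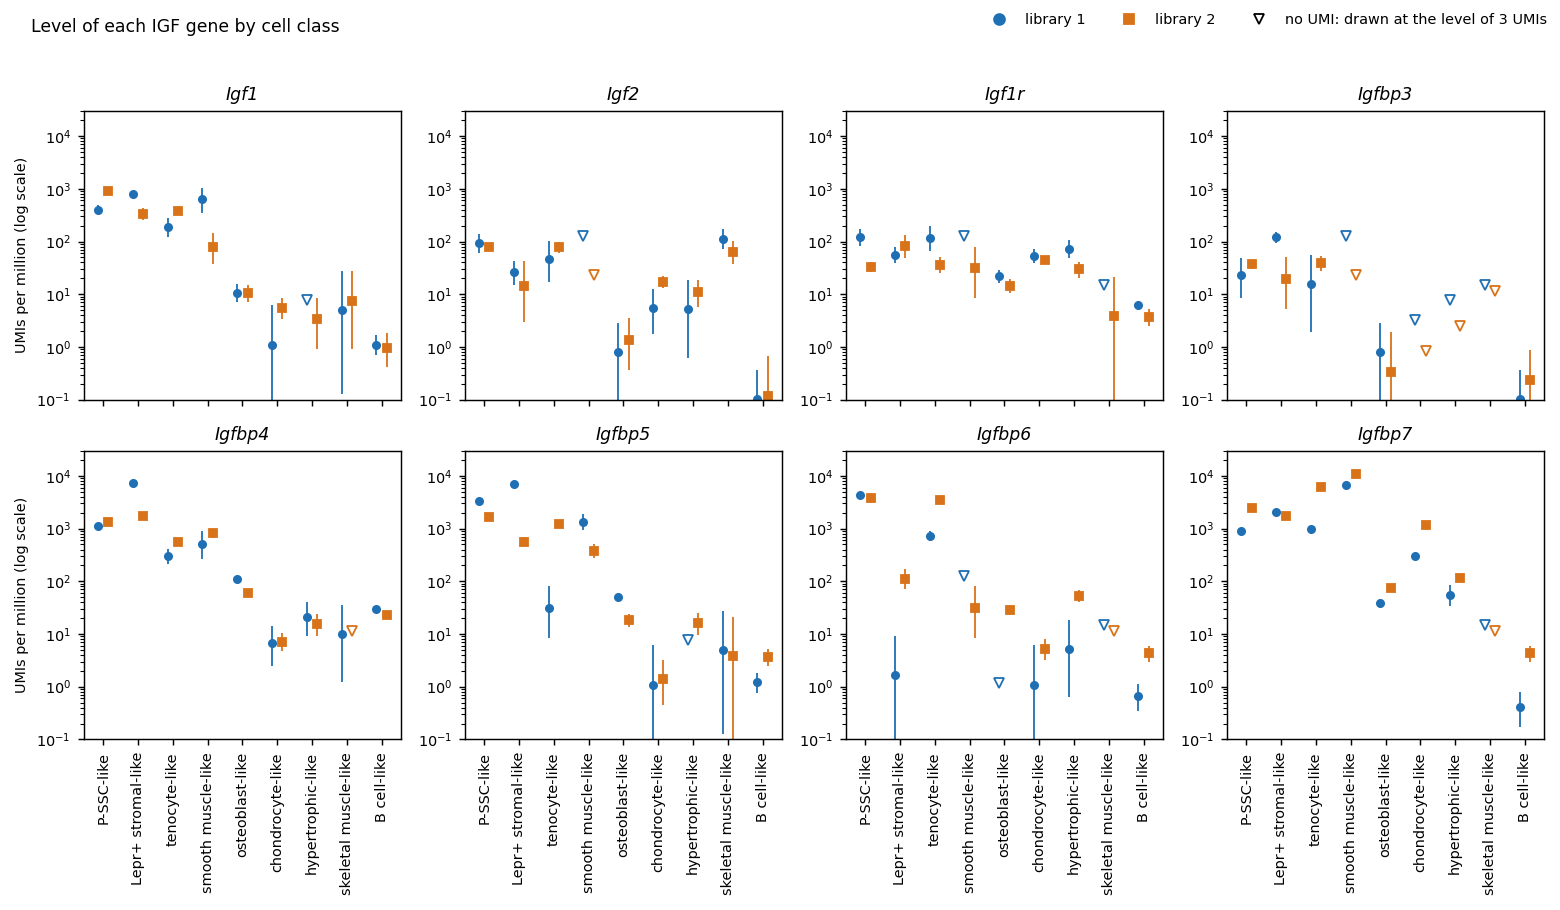
Level of each IGF gene in CPM (log axis) in the stromal classes and in B cell-like cells, with a circle for library 1, a square for library 2, and 95% exact Poisson intervals (counting error only; intervals reaching below the axis end at its edge). Open triangles stand for no UMI and are drawn at the level of 3 UMIs. Igfbp6 was at 4366 and 3830.2 CPM in P-SSC-like cells and at 1.65 and 112 CPM in Lepr+ stromal-like cells, there from 1 cell of each library.

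Each class was then compared with the mean of the other skeletal classes, without the muscle cells. In P-SSC-like cells, 6 of the 8 genes were higher (Igf1, Igf2, Igfbp3, Igfbp4, Igfbp5, and Igfbp6) and none was lower, where 9.49% of all genes were higher and 2.15% lower. The median log2 fold change was 3.68 over the 8 IGF genes and 0.01 over all genes. Tenocyte-like cells also had 6 higher (Igf1, Igf2, Igfbp3, Igfbp5, Igfbp6, and Igfbp7) and none lower, against 6.67% and 0.617% of all genes, and a median of 3.04 against 0.05. Lepr+ stromal-like cells had 4 higher (Igf1, Igfbp3, Igfbp4, and Igfbp5), against 7.34% of all genes, none lower, against 1.44%, and a median of 2.69 against 0.01. Without Igfbp3, whose fold changes depend on the prior count, the medians were 3.31 in P-SSC-like, 3.02 in tenocyte-like, and 1.56 in Lepr+ stromal-like cells.

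The other 3 skeletal classes had only lower calls. Chondrocyte-like cells had 3 lower (Igf1, Igfbp4, and Igfbp5), where 7.34% of all genes were lower and 10.4% higher, and a median of -4.49 against -0.05. Hypertrophic chondrocyte-like cells had 4 lower (Igf1, Igfbp4, Igfbp5, and Igfbp7), against 7.74% of all genes lower and 9.27% higher, and a median of -4.01 against -0.05. Osteoblast-like cells had 2 lower (Igf2 and Igfbp7), against 3.64% of all genes lower and 7.31% higher, and a median of -2.10 against -0.02. Without Igfbp3 these medians were -3.87 in chondrocyte-like, -3.70 in hypertrophic chondrocyte-like, and -2.08 in osteoblast-like cells. These contrasts share their sums, so the calls of different classes are not independent of each other. With the library as a block in the model, 30 calls against the mean were made. Without the tenocyte-like cells 21 calls against the mean were made, without the Lepr+ stromal-like cells 23, and with every class 25. The smaller fits lack the calls of the class left out (6 in tenocyte-like and 4 in Lepr+ stromal-like cells). All calls of the full fit that could still be made held, against the mean or between classes (83 of 83 and 87 of 87).

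**Figure D2:**
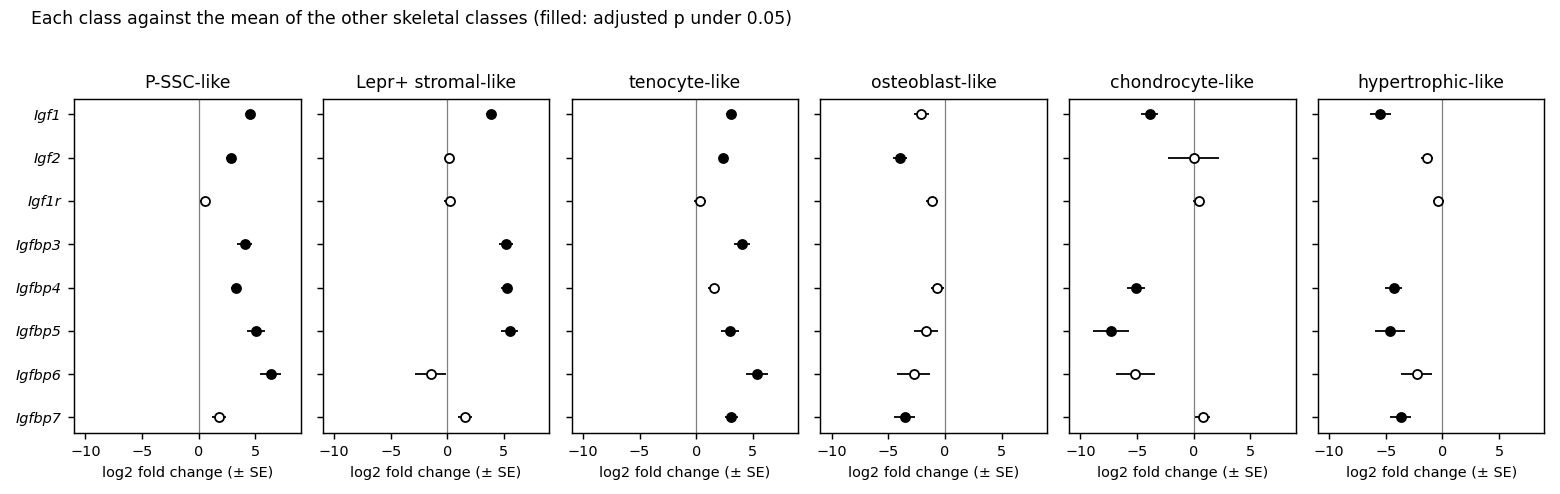
Log2 fold change (x axis, ± SE, n = 2 libraries) of each IGF gene in each class against the mean of the other skeletal classes. Filled points passed an adjusted p of 0.05. P-SSC-like and tenocyte-like cells each have 6 filled points to the right of 0, and osteoblast-like, chondrocyte-like, and hypertrophic chondrocyte-like cells have filled points only to the left. Igfbp3 is not drawn in these last 3 classes, where it had at most 2 UMIs in a library.

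The sequences just before the RefSeq transcription starts of Igf1, Igfbp3, Igfbp4, Igfbp5, Igfbp6, and Igfbp7 are shown because Igf1, Igfbp3, Igfbp4, and Igfbp5 were called higher in both P-SSC-like and Lepr+ stromal-like cells, Igfbp6 in P-SSC-like and tenocyte-like cells, and Igfbp7 in tenocyte-like cells. All 9 genes matched the RefSeq promoter table (GRCm38.p6). Each line gives the last 120 bases before the start, 5′ to 3′ on the gene's strand, at chr10:87860991-87861110 (+), chr11:7213924-7214043 (-), chr11:99041124-99041243 (+), chr1:72874866-72874985 (-), chr15:102144066-102144185 (+), and chr5:77408046-77408165 (-). Capitals mark the TATA motif, spelled TATAAA, or the GC box motif, which is spelled GGGCGG. Both were searched on either strand, together with a palindromic EBF motif. By the gene coordinates given below, the Igf1 stretch lies within the gene, which begins at chr10:87858265, and the bases before that point were not searched. The Igfbp5 stretch overlaps its gene, which reaches chr1:72874884.
Igf1: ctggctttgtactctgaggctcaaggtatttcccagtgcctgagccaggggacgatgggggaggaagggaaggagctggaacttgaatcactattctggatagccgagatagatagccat
Igfbp3: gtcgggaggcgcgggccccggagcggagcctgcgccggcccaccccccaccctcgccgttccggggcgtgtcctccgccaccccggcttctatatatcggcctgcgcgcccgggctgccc
Igfbp4: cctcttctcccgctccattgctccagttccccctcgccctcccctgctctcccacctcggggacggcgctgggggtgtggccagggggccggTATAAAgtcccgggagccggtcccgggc
Igfbp5: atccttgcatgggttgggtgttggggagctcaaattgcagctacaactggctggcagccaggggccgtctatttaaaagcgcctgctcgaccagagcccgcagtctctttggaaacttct
Igfbp6: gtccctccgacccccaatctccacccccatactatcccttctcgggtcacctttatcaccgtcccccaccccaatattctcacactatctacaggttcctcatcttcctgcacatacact
Igfbp7: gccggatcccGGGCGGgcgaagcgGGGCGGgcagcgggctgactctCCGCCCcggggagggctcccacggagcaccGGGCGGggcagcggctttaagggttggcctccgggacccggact

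Within the 250 bases before the start, TATAAA was found in 12.4% of the 32851 promoters of the table, the GC box in 32.7%, and the EBF motif in 0.779%. Igfbp4 held TATAAA beginning 28 bases before its start, and Igfbp7 held 4 GC boxes. Igf1, Igfbp3, and Igfbp5 held none of these motifs in the 250 bases, and Igfbp6 held TATAAA on the reverse strand only, at position -148 and so before the printed stretch. The EBF motif was found in none of the IGF promoters. The 4 genes that were higher in both P-SSC-like and Lepr+ stromal-like cells had none of the 3 motifs in common. Only exact spellings were searched, so related stretches, such as tatata in the printed Igfbp3 sequence, were not counted.

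Igf1 (chr10:87858265-87937042, plus strand, GRCm38, ENSMUSG00000020053) encodes the main postnatal growth factor of the family. In P-SSC-like cells its level was 403 CPM in library 1 and 921 CPM in library 2, with 780.4 and 336 CPM in Lepr+ stromal-like cells and 187 and 386 CPM in tenocyte-like cells. Osteoblast-like cells had 10.7 and 10.5 CPM, chondrocyte-like cells 1.10 and 5.52 CPM, and skeletal muscle-like cells 4.96 and 7.57 CPM. Hypertrophic chondrocyte-like cells had no UMI in library 1 and 3.37 CPM in library 2. All 6 values of the 3 upper classes were thus above all 8 values of the other tested classes. Against the mean of the other skeletal classes, the log2 fold change was 4.52 ± 0.45 (SE, adjusted p = 7.8e-06) in P-SSC-like cells, 3.83 ± 0.46 (adjusted p = 6.2e-05) in Lepr+ stromal-like cells, and 3.07 ± 0.47 (adjusted p = 0.000653) in tenocyte-like cells.

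The upper classes did not separate for Igf1. The P-SSC-like minus Lepr+ stromal-like difference was 0.57 ± 0.67 on the log2 scale (interval of 2 SE, -0.77 to 1.91, adjusted p = 0.758), and the libraries ordered these classes in opposite ways. Tenocyte-like cells stood 4.29 ± 0.78 above osteoblast-like cells (adjusted p = 0.00334, where 11.6% of all genes were called), the only step between neighbors in the order that passed the test. Osteoblast-like cells were at -2.08 ± 0.65 against the mean (adjusted p = 0.0531, and 0.0221 with the library as a block). Among cells, 50.0% of the 20 P-SSC-like cells of library 1 (95% exact binomial interval, 27.2 to 72.8) and 80.7% of the 290 of library 2 (75.7 to 85.1) had an Igf1 UMI, beside 0.449% and 0.524% of B cell-like cells. Median depths were 12388 and 9200 UMIs in the P-SSC-like cells and 3849 and 4004 in the B cell-like cells. Shares at an equal depth of 1000 UMIs per cell, here and below, cover only cells with at least 1000 UMIs. At that depth, an Igf1 UMI was expected in 24.2% and 46.1% of P-SSC-like cells and in 0.145% and 0.135% of B cell-like cells.

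Outside the tested classes, Igf1 was at 632 CPM (15 UMIs in 4 cells) and 77.9 CPM (10 UMIs) in smooth muscle-like cells. Monocyte/macrophage-like cells had 5.90 and 46.5 CPM. Without integration of the libraries, the chondrocyte-like difference was -0.57 in place of -3.87 (adjusted p = 0.785) and the hypertrophic chondrocyte-like difference -2.41 in place of -5.47 (adjusted p = 0.152). In that setting neither Lepr+ stromal-like nor tenocyte-like cells could be tested, so the mean was over fewer classes. P-SSC-like cells were called above chondrocyte-like (6.57 to 7.15) and hypertrophic chondrocyte-like cells (7.95 to 8.42) in all 15 alternative settings.

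Igf2 (chr7:142650766-142666816, minus strand, ENSMUSG00000048583), the imprinted fetal ligand, had another order. Skeletal muscle-like cells had 114 and 64.3 CPM, P-SSC-like cells 95 and 80.1 CPM, and tenocyte-like cells 46.8 and 78.1 CPM. Lepr+ stromal-like cells had 26.3 and 14.6 CPM, and osteoblast-like cells had 0.793 and 1.35 CPM, from 2 and 4 UMIs. The skeletal muscle-like values rest on 23 and 17 UMIs. P-SSC-like cells were 2.84 ± 0.38 above the mean (adjusted p = 0.000176) and tenocyte-like cells 2.39 ± 0.40 (adjusted p = 0.00191), while osteoblast-like cells were lower (-3.98 ± 0.62, adjusted p = 0.000913).

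For Igf2, the P-SSC-like minus Lepr+ stromal-like difference was 2.26 ± 0.61 (adjusted p = 0.0446). This was the single call of the 8 IGF genes in that comparison, where 6.01% of all genes were called. It was not the largest difference. For Igfbp6 the difference was 6.53, which did not pass (adjusted p = 0.0654) but was called with the library as a block. The Igf2 call was lost at a clustering resolution of 0.4 (adjusted p = 0.0609) and with no gene left out of the variable genes (adjusted p = 0.0559). It was also lost without the skeletal muscle-like cells in the fit (adjusted p = 0.0508). In the Msmp-led cluster of library 2, Igf2 was at 70.6 CPM. The muscle and P-SSC-like cells differed by 0.60 ± 0.56 (interval of 2 SE, -0.52 to 1.72, adjusted p = 0.419).

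Igf1r (chr7:67952827-68233668, plus strand, ENSMUSG00000005533), the receptor for both ligands, was spread over the classes. P-SSC-like cells had 122 and 33.3 CPM, tenocyte-like cells 117 and 36.0 CPM, Lepr+ stromal-like cells 56.0 and 82.8 CPM, chondrocyte-like cells 53.9 and 44.4 CPM, hypertrophic chondrocyte-like cells 72.8 and 29.5 CPM, and osteoblast-like cells 21.8 and 14.6 CPM. Among the first 5 of these, the ranges of every pair of classes overlapped except those of Lepr+ stromal-like and chondrocyte-like cells, and both osteoblast-like values lay below the rest. None of the 6 skeletal classes differed from the mean of the others (differences from -1.16 to 0.53, adjusted p from 0.184 to 0.872), nor did any neighbors in the order of levels (osteoblast-like above skeletal muscle-like cells, adjusted p = 0.0518, and 0.0489 with the library as a block). Skeletal muscle-like cells had no UMI in library 1 and 1 UMI in library 2. Against them, P-SSC-like cells stood 4.37 ± 1.07 higher on the log2 scale (adjusted p = 0.00535, where 38.1% of all genes were called). The median difference over all genes in that comparison was 1.09, also higher in P-SSC-like cells. The P-SSC-like library with the higher Igf1r was also the one with 17919 CPM of neutrophil-like markers, and the part of these in its value was not tested.

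Igf1r was also found in blood cells. Of its UMIs in kept cells, 6.59% in library 1 and 63.8% in library 2 lay in stromal cells, and neutrophil-like cells held 42.7% and 17.0%. Its level was 92.6 and 47.8 CPM in neutrophil-like cells and 91.7 and 18.2 CPM in T/NK cell-like cells, beside 6.30 and 3.68 CPM in B cell-like cells. At 1000 UMIs per cell, 11.5% and 6.84% of neutrophil-like cells and 10.7% and 3.29% of P-SSC-like cells were expected to have a UMI.

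Igfbp2 (chr1:72824503-72852474, plus strand, ENSMUSG00000039323) had few UMIs, with 13 UMIs in all kept cells of library 1 and 5 in library 2. The B cell-like cells of library 1 held 9 of these, and the P-SSC-like cells of library 2 held 3, all in the Mfap4-led cluster. Tenocyte-like cells held 66.7% of the 3 stromal UMIs of library 1 and 25% of the 4 of library 2. No P-SSC-like cell of library 1 had a UMI, which at 20 cells allows a share of cells with a UMI of up to 15%.

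Igfbp3 (chr11:7206086-7213923, minus strand, ENSMUSG00000020427) encodes the main carrier of IGFs in serum. It was at 122 and 19.5 CPM in Lepr+ stromal-like cells (74 and 4 UMIs), 22.8 and 36.9 CPM in P-SSC-like cells (6 and 101 UMIs), and 15.6 and 39.0 CPM in tenocyte-like cells (2 and 38 UMIs). The other tested classes had at most 2 UMIs in a library. Chondrocyte-like cells had none in 27 and 121 cells, which by the limit of 3 counts allows a share of cells with a UMI of up to 11.1% and 2.48%, for counting error only. Against osteoblast-like cells, the difference was 5.14 ± 0.96 in P-SSC-like cells (adjusted p = 0.00442), and 5.15 ± 0.98 in tenocyte-like cells (adjusted p = 0.00732). P-SSC-like, tenocyte-like, and Lepr+ stromal-like cells were called higher than the mean (adjusted p = 0.00152, 0.00347, and 0.000292), with fold changes that depend on the prior count because several classes were at 0. Lepr+ stromal-like cells were not separated from P-SSC-like cells (0.93 ± 0.73, adjusted p = 0.608).

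Igfbp4 (chr11:99041244-99054392, plus strand, ENSMUSG00000017493) encodes a binding protein that holds IGFs from the receptor until the protease pappalysin-1 cleaves it. Lepr+ stromal-like cells had 7193 CPM in library 1 and 1738 CPM in library 2, followed by 1102 and 1322 CPM in P-SSC-like cells. Below them were tenocyte-like cells with 304 and 561 CPM, osteoblast-like cells with 110.3 and 60.9 CPM, hypertrophic chondrocyte-like cells with 20.8 and 15.2 CPM, and chondrocyte-like cells with 6.60 and 7.18 CPM. In both libraries these 6 classes stood in the same order. Smooth muscle-like cells (4 and 20 cells, not tested) stood between P-SSC-like and tenocyte-like cells in both libraries. The difference from the mean was 5.22 ± 0.44 (adjusted p = 5.2e-06) in Lepr+ stromal-like cells and 3.31 ± 0.45 (adjusted p = 0.000151) in P-SSC-like cells, and it was -5.10 ± 0.80 (adjusted p = 0.000499) in chondrocyte-like cells. With the library as a block, tenocyte-like cells were also called higher (1.63, adjusted p = 0.0397).

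Of the steps between neighbors, osteoblast-like above hypertrophic chondrocyte-like cells passed the test for Igfbp4 (3.04 ± 0.79, adjusted p = 0.0183, where 15.5% of all genes were called), and Lepr+ stromal-like above P-SSC-like cells did not (1.59 ± 0.70, interval of 2 SE, 0.18 to 2.99, adjusted p = 0.26). The first was lost without integration (1.40, adjusted p = 0.148), with no gene left out of the variable genes (adjusted p = 0.0626), and without called doublets (adjusted p = 0.0902). Lepr+ stromal-like cells were 3.05 ± 0.74 above tenocyte-like cells (adjusted p = 0.0326), the single IGF call in that comparison, where 4.35% of all genes were called. With no gene left out of the variable genes it was 2.17 (adjusted p = 0.125), and within library 2 it was 1.24. Igfbp4 was also found in blood cells, at 187 and 161 CPM in neutrophil-like cells and 191 and 129 CPM in T/NK cell-like cells, beside 29.5 and 22.9 CPM in B cell-like cells.

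Igfbp5 (chr1:72857932-72874884, minus strand, ENSMUSG00000026185) encodes a binding protein that is abundant in bone matrix. It was at 3310 and 1659 CPM in P-SSC-like cells, 6984 and 565 CPM in Lepr+ stromal-like cells, and 31.2 and 1232 CPM in tenocyte-like cells. Osteoblast-like cells had 51.2 and 18.3 CPM, and chondrocyte-like cells 1.10 and 1.38 CPM. Lepr+ stromal-like cells were the highest tested class in library 1, and P-SSC-like cells in library 2. Smooth muscle-like cells, which were not tested, came next after P-SSC-like cells in library 1 and after Lepr+ stromal-like cells in library 2. The Msmp-led cluster held 7.40% of the stromal Igfbp5 UMIs of library 2. The difference from the mean was 5.07 ± 0.76 (adjusted p = 0.000274) in P-SSC-like cells, 5.51 ± 0.76 (adjusted p = 0.000194) in Lepr+ stromal-like cells, and -7.30 ± 1.58 (adjusted p = 0.00502) in chondrocyte-like cells. Hypertrophic chondrocyte-like cells were at -4.65 ± 1.33 (adjusted p = 0.0265), a call lost with the skeletal muscle-like cells in the mean (adjusted p = 0.0523).

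The tenocyte-like call for Igfbp5 (3.02 ± 0.78, adjusted p = 0.0273) rests on library 2. Within library 1 alone the difference was -1.88, from 4 UMIs in 16 cells. The adjusted p was 0.0552 when libraries entered the model as a block, 0.0545 without the skeletal muscle-like cells, and 0.197 by DESeq2. P-SSC-like minus Lepr+ stromal-like cells came to -0.36 ± 1.15 (adjusted p = 0.935), which covers differences in both directions of several fold. Within library 2, Lepr+ stromal-like cells were 2.54 above the mean of the other skeletal classes.

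Igfbp6 (chr15:102144362-102149511, plus strand, ENSMUSG00000023046) encodes a binding protein that prefers IGF2 over IGF1. It was at 4366 and 3830.2 CPM in P-SSC-like cells and at 717 and 3522 CPM in tenocyte-like cells. Lepr+ stromal-like cells had 1.65 and 112 CPM, from 1 and 23 UMIs that lay in 1 cell of each library. Hypertrophic chondrocyte-like cells had 5.20 and 53.1 CPM, osteoblast-like cells 0 and 28.4 CPM, and chondrocyte-like cells 1.10 and 5.25 CPM. B cell-like cells had 0.656 and 4.27 CPM, also lower in library 1. Both values of P-SSC-like cells were above those of every other tested class. P-SSC-like cells were 6.35 ± 0.95 above the mean (adjusted p = 0.000598) and tenocyte-like cells 5.37 ± 0.94 (adjusted p = 0.00322). Against Lepr+ stromal-like cells alone, the P-SSC-like difference was 6.53 ± 1.89 (adjusted p = 0.0654), and it passed with the library as a block (8.08, adjusted p = 0.000881). The block also added lower calls in osteoblast-like (-3.30, adjusted p = 0.0162) and chondrocyte-like cells (-5.51, adjusted p = 0.00272), and a higher level in tenocyte-like than in Lepr+ stromal-like cells (adjusted p = 0.0045).

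The share of cells with an Igfbp6 UMI differed between these classes in both libraries. An Igfbp6 UMI was found in 100% of the P-SSC-like cells of library 1 and 95.2% of library 2, in 1.2% and 2.70% of Lepr+ stromal-like cells, and in 0.486% and 0.823% of B cell-like cells. At 1000 UMIs per cell a UMI was expected in 87.6% and 77.9% of P-SSC-like cells, 12% and 72.4% of tenocyte-like cells, and 0.173% and 2.35% of Lepr+ stromal-like cells.

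Igfbp7 (chr5:77349240-77408041, minus strand, ENSMUSG00000036256) encodes a secreted protein that binds IGFs weakly and is known from vessels. It was highest in smooth muscle-like cells, at 6695 and 10830 CPM (not tested), and was at 966 and 6032 CPM in tenocyte-like cells. Lepr+ stromal-like cells had 2027 and 1699 CPM, P-SSC-like cells 916 and 2493 CPM, and chondrocyte-like cells 300.3 and 1191 CPM. The Msmp-led cluster of library 2 had 5565 CPM. Osteoblast-like cells had 38.5 and 74.8 CPM, hypertrophic chondrocyte-like cells 54.6 and 117 CPM, and skeletal muscle-like cells no UMI.

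Tenocyte-like cells were 3.11 ± 0.60 above the mean for Igfbp7 (adjusted p = 0.00562), osteoblast-like cells were lower (-3.55 ± 0.93, adjusted p = 0.0274), and so were hypertrophic chondrocyte-like cells (-3.70 ± 0.95, adjusted p = 0.0193). Neither lower call held with the skeletal muscle-like cells in the mean (-1.40 and -1.55), where Igfbp7 was at 0, and the osteoblast-like call was lost at a resolution of 0.4 (adjusted p = 0.0783). P-SSC-like (1.78 ± 0.63, adjusted p = 0.0952) and Lepr+ stromal-like cells (1.56 ± 0.64, adjusted p = 0.175) did not pass, and both did with the library as a block (adjusted p = 0.0108 and 0.00609). Chondrocyte-like cells were 3.63 ± 1.02 above osteoblast-like cells, their neighbors in the order (adjusted p = 0.0392, where 9.98% of all genes were called), a call lost at a resolution of 0.4 (adjusted p = 0.0528) and with hematopoietic classes in the fit (adjusted p = 0.0709). They were also 3.76 ± 1.03 above hypertrophic chondrocyte-like cells (adjusted p = 0.0318). The latter was the single IGF call between the chondrocyte classes, where 14.1% of all genes were called.

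**Figure D3:**
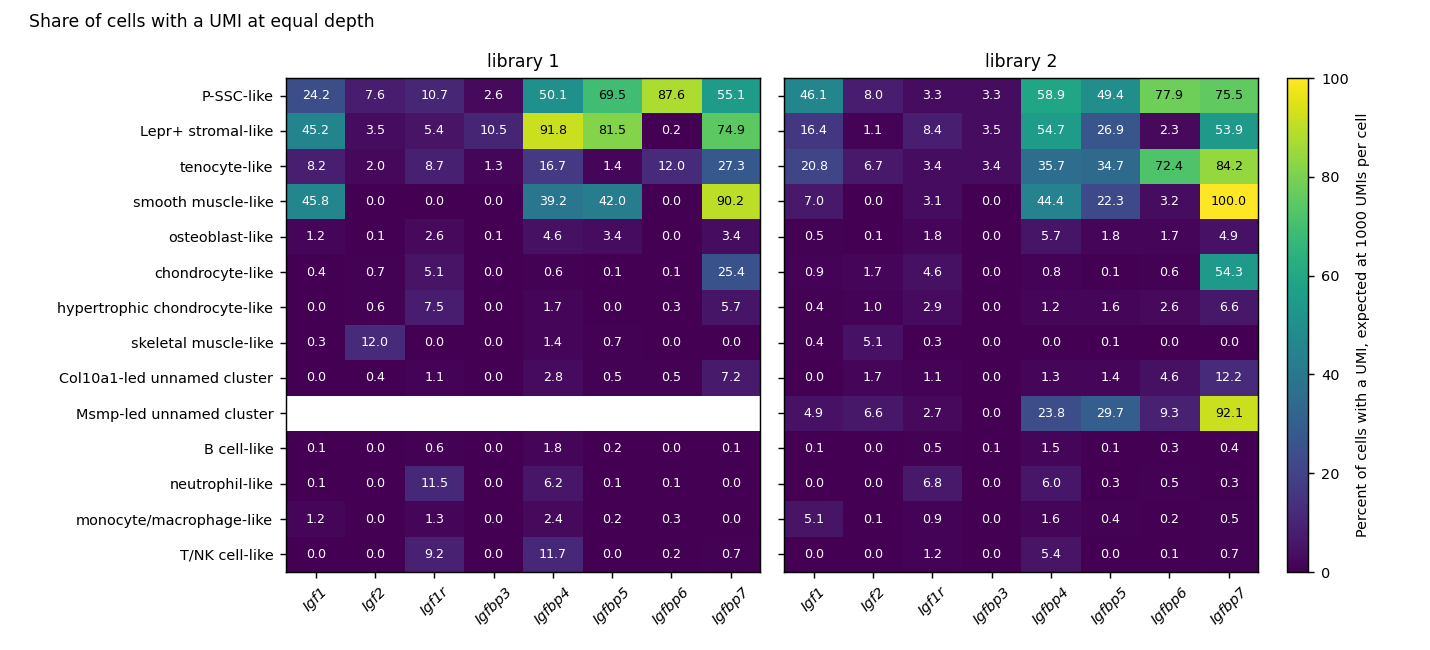
Percent of cells with at least 1 UMI of each IGF gene, expected at 1000 UMIs per cell. Cells with at least 1000 UMIs were thinned to that depth, and cells below it were left out. Rows are cell classes and columns are genes, in library 1 (left) and library 2 (right). The empty row marks a cluster with no cell in library 1. P-SSC-like cells have 87.6% and 77.9% for Igfbp6, and neutrophil-like cells have 11.5% and 6.84% for Igf1r.

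Between P-SSC-like and tenocyte-like cells, none of the 8 genes was called, and 1.26% of all genes were. The differences ran from -1.10 ± 0.93 for Igfbp7 to 1.71 ± 1.18 for Igfbp5, so that differences of several fold in single genes are within these errors. Between P-SSC-like and osteoblast-like cells, 7 of the 8 genes were higher in P-SSC-like cells, all but Igf1r, where 8.93% of all genes were higher. The sizes ran from 3.32 ± 0.75 for Igfbp4 to 7.59 ± 1.94 for Igfbp6.

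The P-SSC-like cells formed 2 clusters, led by Pi16, Mfap5, and Fbn1 (16 and 167 cells) and by Mfap4, Eln, and Apod (4 and 123 cells). In the Mfap4-led cluster, 11 of the 12 class markers were found, but none was among its leading genes. Igf1 was at 235 and 738 CPM in the Pi16-led cluster and at 1186 and 1246 CPM in the Mfap4-led cluster. Igfbp3 was at 0 and 8.01 CPM in the Pi16-led cluster and at 129 and 88.2 CPM in the Mfap4-led cluster, from 0, 14, 6, and 87 UMIs. Igf2 (78.4 and 30.9 against 172 and 167 CPM) and Igfbp4 (923 and 1031 against 1940.4 and 1836 CPM) were also higher in the Mfap4-led cluster in both libraries. Igfbp6 had the opposite order, with 4723 and 4766 CPM in the Pi16-led and 2695 and 2171 CPM in the Mfap4-led cluster. Igfbp5 was higher in the Mfap4-led cluster of library 1 (4075 against 3146 CPM) and in the Pi16-led cluster of library 2 (2010.0 against 1037 CPM). With 4 cells in library 1, the clusters were not tested, and these values are a description.

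**Figure D4:**
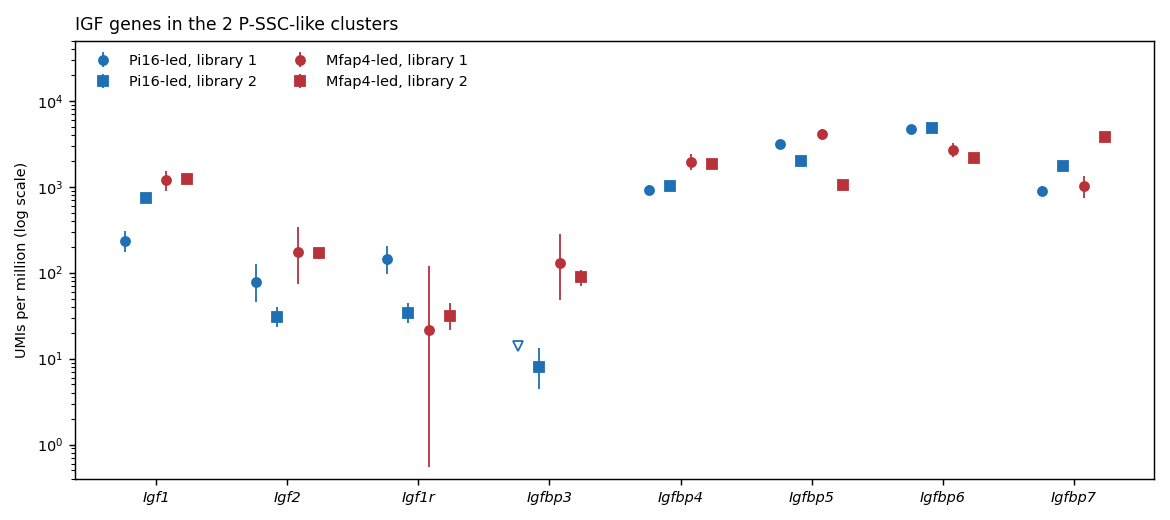
Level of each IGF gene in CPM (log axis) in the Pi16-led (blue) and Mfap4-led (red) P-SSC-like clusters, with circles for library 1 and squares for library 2 and 95% exact Poisson intervals. The open triangle stands for no UMI and is drawn at the level of 3 UMIs. Igfbp3 reads 129 and 88.2 CPM in the Mfap4-led cluster and 0 and 8.01 CPM in the Pi16-led cluster.

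Osteoblast-like cells also formed 2 clusters. In the Ifitm5-led cluster (66 and 131 cells), Igf1 was at 16.2 and 15.9 CPM, and in the Gal-led cluster (26 and 36 cells) it was at 0 and 0.939 CPM. Igfbp4 was at 160.4 and 73.6 CPM in the former and 12.8 and 38.5 CPM in the latter.

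How the UMIs of each gene were divided among the classes depends also on how many cells of each class a library holds. Lepr+ stromal-like cells held 69.0% of the stromal Igf1 UMIs of library 1 and 2.20% of library 2, and P-SSC-like cells 15.4% and 80.2%. For Igfbp4, the shares were 81.7% and 6.79% in Lepr+ stromal-like cells and 5.42% and 68.7% in P-SSC-like cells. For Igfbp6, P-SSC-like cells held the most in both libraries (89.3% and 71.9%), and tenocyte-like cells held 7.15% and 23.5%. For Igf1r, no class held over 23.6% in library 1 or 37.5% in library 2. The mixed cluster, which counts among the stromal cells, held 4.66% and 2.1% of Igf1 and 4.52% and 1.14% of Igfbp4. Of Igfbp5 it held 5.02% and 2.91%.

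**Figure D5:**
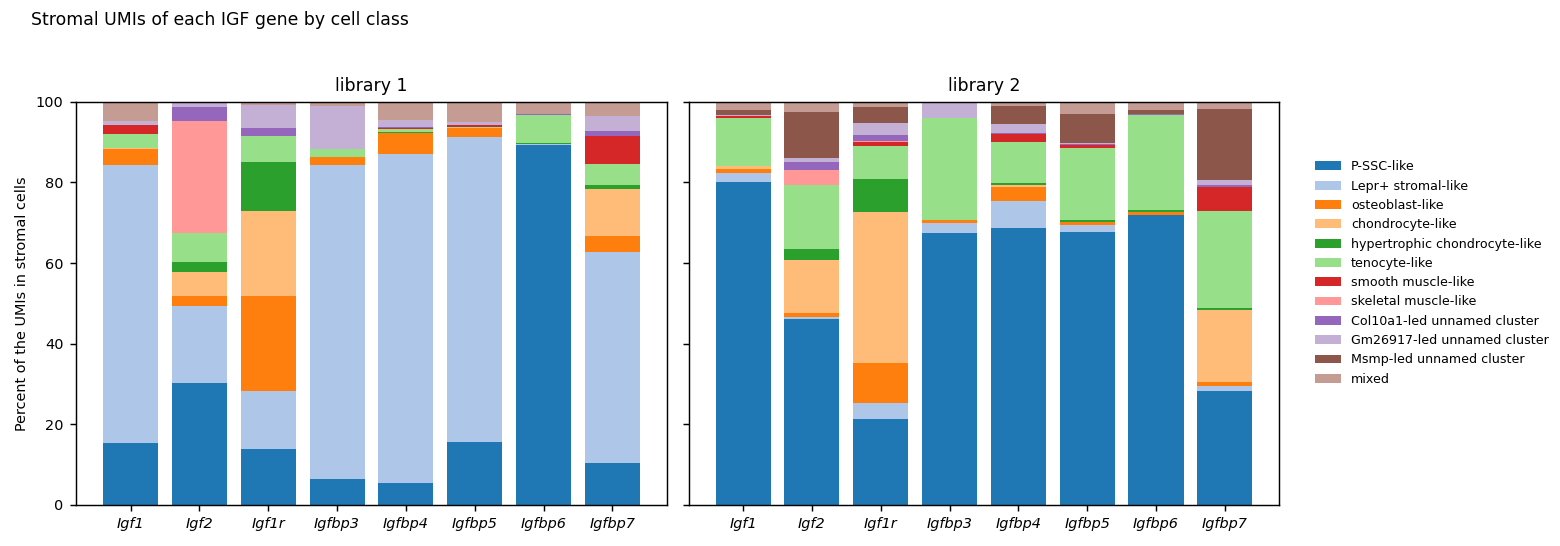
Percent of the UMIs of each IGF gene in stromal cells (y axis) that lay in each class (colors), in library 1 (left) and library 2 (right). Lepr+ stromal-like cells hold 69.0% of Igf1 in library 1 and 2.20% in library 2, and P-SSC-like cells hold 89.3% and 71.9% of Igfbp6.

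The genes whose log2 CPM followed each IGF gene most closely over the 14 sums are given as a description, since the sums share libraries and classes. Igf1 ran closest to Loxl1 (r = 0.958), Igfbp3, and Rarres2, and Igfbp3 to Fbln5 (r = 0.967), Igf1, and Mill2. Igfbp4 ran closest to Rbms3 (r = 0.964), Olfml2b, and Serping1, and Igfbp5 to Lamb1 (r = 0.957), Serping1, and Naalad2. Igfbp6 ran closest to Prg4 (r = 0.977), Tnxb, and Ly6c1, and Igfbp7 to Col6a2 (r = 0.967), Spon2, and Islr. The Msmp-led cluster of library 2 was not among the 14 sums. It had Prg4 at 57557 CPM, beside 5728 CPM in the P-SSC-like cells of that library. With 6.58% of the stromal cells of library 2, it held 0.995% of their Igfbp6 UMIs. Igf2 ran closest to Mn1 (r = 0.923), Lynx1, and Nfu1, and Igf1r to Zzef1 (r = 0.951), Dennd5a, and Mapk3.

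Of the 30 other genes of the IGF pathway, 23 passed the filter and 16 differed among the classes, which is set beside 56.8% of all genes. Skeletal muscle-like cells were in this test, and these genes were not read without them. That class was the lowest for Pappa, Htra1, Stc2, Irs2, Shc1, Pik3r1, Foxo1, and Plagl1. Among the 8 genes that set the availability of the ligand, 3 were tested and all 3 differed, beside the 56.8% of all genes. Pappa, which encodes the protease that cleaves IGFBP4, was at 660.2 and 219 CPM in Lepr+ stromal-like cells and at 54.6 and 8.22 CPM in tenocyte-like cells (adjusted p = 5.8e-05 over all classes). Pappa was thus highest in the class that also had the most Igfbp4. Htra1, which encodes a serine protease, was at 689 and 997 CPM in hypertrophic chondrocyte-like cells and at 289 and 659.6 CPM in P-SSC-like cells (adjusted p = 0.00849). Stc2, which encodes an inhibitor of pappalysins, was at 62.7 and 58.0 CPM in chondrocyte-like cells (adjusted p = 0.00012). Igfbp1 and Igfbpl1 had no UMI in any kept cell.

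All 7 receptors and adapters were tested and differed among the classes, skeletal muscle-like cells included, where 56.8% of all genes differed. Grb14, which encodes an adapter that inhibits the insulin receptor, was at 232 and 158 CPM in chondrocyte-like cells and at 0 and 4.75 CPM in P-SSC-like cells. Irs2, which encodes an insulin receptor substrate, was at 96.2 and 138 CPM in hypertrophic chondrocyte-like cells, and Shc1, which encodes an adapter to the RAS pathway, at 95.5 and 102 CPM in Lepr+ stromal-like cells. Of the 9 genes of intracellular signaling, 2 differed (Pik3r1 and Foxo1), against the same share of all genes. Pik3r1, which encodes the regulatory subunit of PI3K, was at 382 and 213 CPM in hypertrophic chondrocyte-like cells. Foxo1, which encodes a transcription factor that AKT keeps out of the nucleus, was at 138 and 84.2 CPM in the same class. Foxo3, a related factor, was at 70.2 and 65.7 CPM there and did not pass (adjusted p = 0.178).

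Of the 6 genes that control the supply of ligand, 4 were tested and all 4 differed, beside 56.8% of all genes. H19, the maternally expressed RNA of the imprinted locus that also holds Igf2, was at 2813 and 2699 CPM in skeletal muscle-like cells and next at 225 and 173 CPM in chondrocyte-like cells (adjusted p = 4.9e-09 over all classes). H19 was thus highest in the skeletal muscle-like cells of both libraries, and Igf2 in those of library 1 only, among the tested classes. Plagl1, which encodes an imprinted zinc-finger factor, was at 212 and 100.5 CPM in chondrocyte-like cells (adjusted p = 0.000251). Hypertrophic chondrocyte-like cells had 169 and 66.5 CPM of Plagl1. Ghr, which encodes the growth hormone receptor upstream of Igf1, was at 289.8 and 97.4 CPM in Lepr+ stromal-like cells (adjusted p = 0.0117).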

How the data were processed

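Reads were processed by the authors with Cell Ranger 6.1.2 against mm10 (from the submitters' processing notes; the annotation version is not given in the sources used here). The deposited values are raw UMI counts for each gene in each barcode, neither normalized nor pooled. The deposited counts total 100808649 UMIs in library 1 and 33306452 in library 2, and 8 barcodes occur in both, 7 of them kept. The IGF genes, the pathway and marker lists, and the comparisons were chosen with earlier results of these data known.

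Cells passing the filters were integrated (canonical correlation analysis, Seurat 5.3.0 under R 4.3.3) on 3000 variable genes less the IGF genes, using 30 anchor dimensions, and 15 principal components, and clustered at resolution 0.8. The stromal cells were then integrated and clustered again. Clusters were named from 22 marker lists by a rule set after the clusters had been seen. A class entered the test on summed counts if both libraries held 10 or more of its cells, fitted with edgeR 4.0.16 (filterByExpr, TMM, bias-adjusted quasi-likelihood test, Benjamini-Hochberg adjustment over 10536 genes, threshold 0.05). The test was tried on simulated data. Levels are UMIs per 1000000 UMIs of the class, with exact 95% intervals that cover counting error only. Log2 CPM for the order of classes and for correlations used a prior count of 2. The text names the 9 IGF genes, the 3 pathway genes per group with the widest range between class means, pathway genes with no UMI, and the 3 genes most like each member. Coordinates are from GENCODE M21 on GRCm38. Doublets were kept. Scrublet in Scanpy 1.11.5 called 129 of 6276 cells of library 1 and 1 of 2893 of library 2, where it did not work. Same-numbered sums come from the same library, so the numbers pair them. Their differences between libraries were correlated between classes at r = 0.076 to 0.341 over 21 pairs.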

Additional observations from a re-analysis of the deposited data

How the results depend on the processing

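Of the 115 single-gene calls (25 against the mean and 90 between pairs of classes), 113 kept their direction and threshold by DESeq2, 114 with the library as a replicate block, 115 with relative log expression size factors, 115 without the filter on low counts, and 115 without edgeR's bias adjustment. The block ended the call of Igfbp5 in tenocyte-like cells (adjusted p = 0.0552) and added 11. Calls against the mean thus rose from 25 to 30 and calls between classes from 90 to 95. Calls over all genes rose as well with the block. They went from 768 to 902 in tenocyte-like, 1226 to 1614 in P-SSC-like, and 1793 to 2636 in hypertrophic chondrocyte-like cells. Without called doublets 114 of 115 held, with no gene left out of the variable genes 110, with muscle in the mean 112, and with hematopoietic classes in the fit 112. At a resolution of 0.4, 80 of 83 held, and at 1.2, 83 of 83; neither resolution gave tenocyte-like cells in both libraries. Without integration 45 of 51 held, and neither tenocyte-like nor Lepr+ stromal-like cells could be tested. In the alternatives chosen after seeing the data, 83 of 83 held without tenocyte-like cells, 87 of 87 without Lepr+ stromal-like cells, and 83 of 85 without muscle cells.

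Counts that moved by more than 1.5 times were these. Calls against the mean fell from 25 to 16 and calls between classes from 90 to 37 without integration, with fewer classes to compare, and calls between classes were 59 without muscle cells. Genes differing among any classes were 5988, and 11588 with hematopoietic classes. Genes called were 1226 in P-SSC-like cells and 2476 without integration, 925 in Lepr+ stromal-like cells and 1521 with muscle in the mean, 1153 in osteoblast-like cells and 1730 with the replicate block, and 768 in tenocyte-like cells and 1332 without the filter. The cause was not tested.

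Within a single library nothing could be tested, since each class then has 1 sum. The differences kept their sign within either library except for Igfbp5 in tenocyte-like cells (-1.88 within library 1 and 4.34 within library 2). Of the 115, 47 moved by more than the spread between libraries without replicate 1, and 43 without replicate 2. Shares of cells depended on depth, as the values at 1000 UMIs show. Depth limits the classes with few cells: 3 UMIs equal 23.4 CPM in the tenocyte-like cells of library 1.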
